A study of Mus musculus with 9 samples.

Results

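The fibrillar collagen genes Col1a1, Col1a2, Col3a1, Col5a1 and Col5a2, the cross-linking enzyme genes Lox and Loxl1, and 3 genes low after 1 day of dexamethasone, Cthrc1, Prss35 and Cd109, were followed in the mouse olfactory mucosa. These are 10 of 23631 features on the array. They were picked by symbol with their values after 1 day already known, so those values are a description and carry no test. All 10 were measured, on 13 probes in all. Lox, Loxl1 and Cd109 each had a second, dimmer probe, and the brighter one stands for the gene unless stated.

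Olfactory mucosa, the lining of the nose that holds the olfactory sensory neurons, came from wild-type male C57BL/6 mice aged 6 to 8 weeks. Control mice received saline for 2 weeks, D1 mice received dexamethasone, a synthetic glucocorticoid, for 1 day, and WK2 mice received dexamethasone daily for 2 weeks, given intraperitoneally at 1 mg/kg. Of 9 mice in a group, samples for 3 arrays were chosen for their expression of olfactory marker protein. The length of the injections also separates D1 from control and cannot be told apart from the drug. Whether the samples in a group are from different mice is not stated, so a p-value reflects the spread among them, which could be technical.

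Fibrillar collagens are the load-bearing fibres of connective tissue. Their chains wind into a triple helix in the cell, are trimmed outside it and assemble into fibrils, which lysyl oxidases then join by covalent cross-links. In the olfactory mucosa they lie mainly in the lamina propria under the epithelium and in the bone and cartilage that carry it. Glucocorticoids are known to lower collagen synthesis in skin and bone.

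RefSeq's table of promoters for GRCm38.p6 held 4 of the 10 genes, Col1a2, Col3a1, Col5a1 and Prss35. Col1a2 and Prss35 are printed because their D1 arrays lay below both other groups with no overlap and because both windows hold the letters CCAAT, the core of the element bound by NF-Y, which is known to act on the type I collagen promoters. Each sequence is the 250 bases before the annotated start, on the plus strand, at chr6:4505368-4505617 for Col1a2 and chr9:86743383-86743632 for Prss35. Capitals mark CCAAT, which reads ATTGG where it lies on the other strand.
Col1a2: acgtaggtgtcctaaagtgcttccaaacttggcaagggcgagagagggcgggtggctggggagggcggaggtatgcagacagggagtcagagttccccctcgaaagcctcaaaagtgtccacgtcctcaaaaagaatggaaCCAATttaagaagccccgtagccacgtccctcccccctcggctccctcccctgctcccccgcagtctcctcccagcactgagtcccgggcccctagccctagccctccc
Prss35: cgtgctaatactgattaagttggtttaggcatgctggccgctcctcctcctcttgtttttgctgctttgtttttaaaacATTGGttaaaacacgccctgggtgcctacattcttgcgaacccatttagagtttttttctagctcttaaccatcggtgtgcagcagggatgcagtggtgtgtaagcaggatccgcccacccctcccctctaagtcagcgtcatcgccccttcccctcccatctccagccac

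CCAAT was searched on both strands and stands in 33.8% of the 32851 windows of this length in the table. It begins 109 bases before the start in Col1a2 and 171 bases before it in Prss35, and is not in the windows of Col3a1 and Col5a1. The letters AGAACA, one arm of the palindrome that the glucocorticoid receptor binds, are in 16.1% of all windows and in none of the 4. CAGACA, which contains the Smad box, is in 17.1% of all windows and in 3 of the 4, those of Col1a2, Col3a1 and Col5a1. These matches describe the letters only.

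Col1a2, which encodes the α2 chain of type I collagen, had intensities of 136691, 135489 and 139452 on the control arrays, 71465, 79008 and 97342 on the D1 arrays and 167905, 118540 and 135066 on the WK2 arrays. All D1 arrays lay below all others, and the WK2 arrays lay on both sides of the control arrays. Its mean log2(intensity + 50), the scale of all differences given here, was lower than control by -0.74 ± 0.17 (SE, n = 3) in D1, and the WK2 difference from control was 0.019 ± 0.17 (limma, adjusted p = 0.948). Fewer collagen-producing cells and less RNA per cell cannot be told apart in such whole-tissue samples.

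Col1a1, which encodes the α1 chain of the same protein, did not share that pattern on its probe. It read 1403, 1509 and 2866 in control, 2452, 1852 and 2067 in D1 and 1207, 1698 and 1929 in WK2. The 3 groups overlapped, and control replicate 3 was the highest array of all. This probe stood at percentile 53.1 of mean intensity over all features, where that of Col1a2 stood at 99.3. How well this probe reads the Col1a1 transcript was not tested. The D1 difference was 0.20 ± 0.28 (SE, n = 3), the only one of the 10 above control, and the WK2 difference was -0.20 ± 0.28 (limma, adjusted p = 0.627). Over the 9 arrays, Pearson's r between Col1a1 and Col1a2 was -0.49, while Col1a2 had r = 0.93 with Col5a2 and 0.83 with Col3a1. These correlations describe arrays that share their groups and carry no test.

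Col3a1 encodes the chain of type III collagen, which forms thin fibres beside type I. Its intensities were 2466, 1898 and 2997 in control, 1501, 1812 and 1982 in D1, and 3184, 2066 and 3285 in WK2. D1 and control overlapped, at control replicate 2, while every WK2 array was above every D1 array. The D1 difference was -0.45 ± 0.23 (SE, n = 3) and the WK2 difference 0.20 ± 0.23 (limma, adjusted p = 0.544). Without control replicate 3 the D1 difference was -0.30.

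Type V collagen starts fibrils and limits their width, and its chains come from Col5a1 and Col5a2. Col5a2 stood at 5493, 4994 and 6112 in control, 2685, 3722 and 3340 in D1 and 7402, 5485 and 6906 in WK2, so the D1 arrays lay apart from both other groups. Its D1 difference was -0.77 ± 0.18 (SE, n = 3), and in WK2 it was 0.25 ± 0.18 (limma, adjusted p = 0.353). Col5a2 is the next coding gene after Col3a1 on chromosome 1.

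Col5a1 had a smaller contrast, with 4660, 3502 and 6628 in control, 3129, 3488 and 3086 in D1 and 4765, 3397 and 4061 in WK2. D1 replicate 2 at 3488 and control replicate 2 at 3502 nearly met, and D1 overlapped with WK2. The D1 difference was -0.55 ± 0.23 (SE, n = 3) and the WK2 difference -0.24 ± 0.23 (limma, adjusted p = 0.477). Without control replicate 3, the highest array, these were -0.32 and -0.0014.

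**Figure D1:**
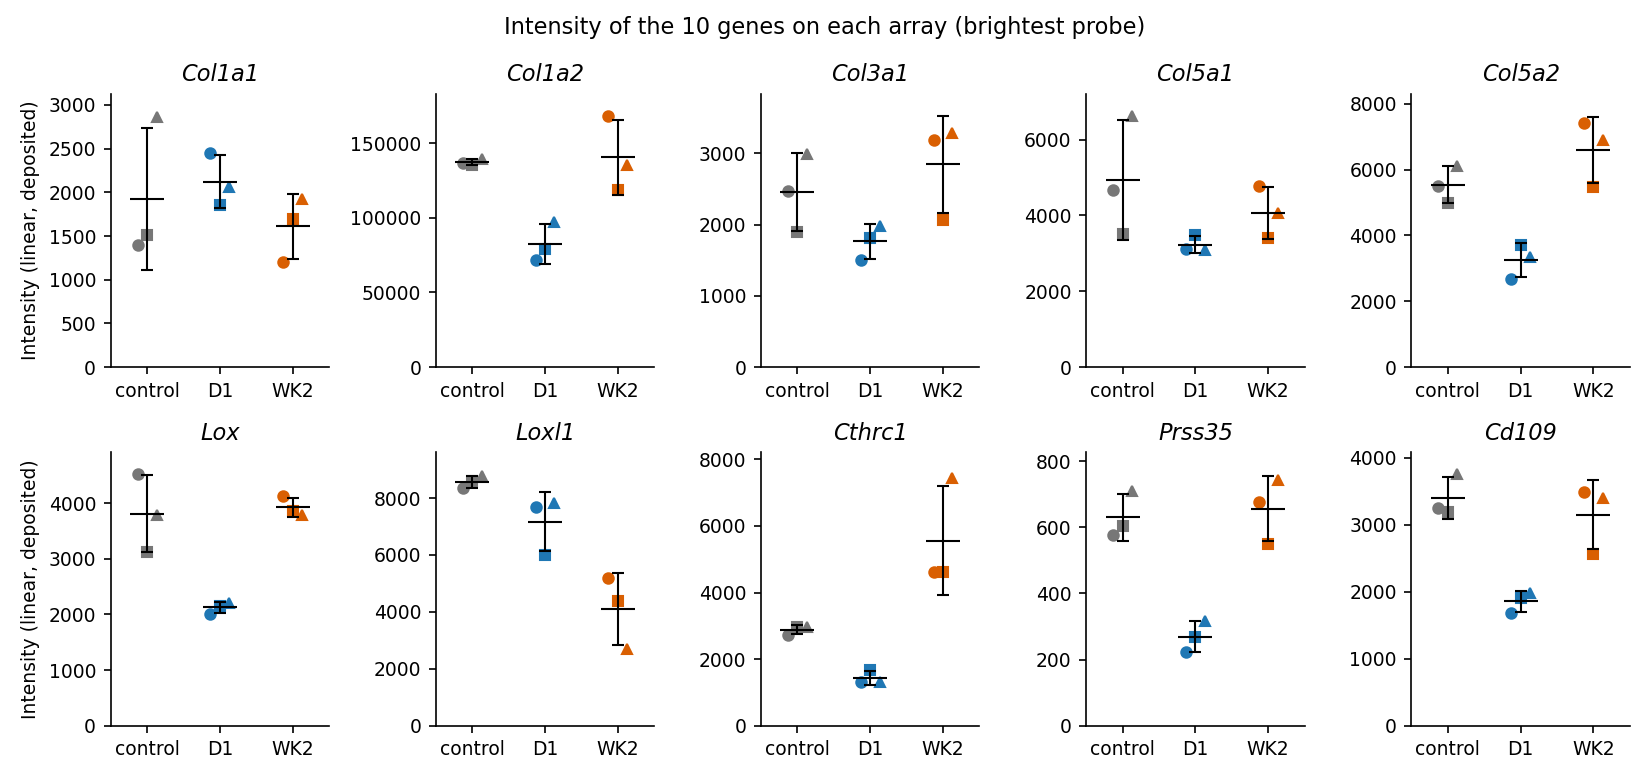
Intensity on a linear scale (vertical axis, a separate scale for each gene) of the brightest probe of each gene on every control, D1 and WK2 array. Circles, squares and triangles are replicates 1, 2 and 3, long bars are means and error bars are SD (n = 3). The D1 arrays are lowest for Col1a2, Col5a2, Lox, Cthrc1, Prss35 and Cd109, while Loxl1 is lowest in WK2 and the Col1a1 groups overlap.

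Lox, lysyl oxidase, the secreted enzyme that starts collagen and elastin cross-links, read 4513, 3128 and 3779 in control, 2014, 2152 and 2212 in D1 and 4119, 3865 and 3780 in WK2. The D1 arrays fell within a narrow band below the other 6. The D1 difference was -0.81 ± 0.16 (SE, n = 3), and the WK2 difference was 0.057 ± 0.16 (limma, adjusted p = 0.818). Its dimmer probe read 689, 630 and 435 in control, 214, 299 and 356 in D1 and 584, 404 and 262 in WK2. There, too, D1 lay below control without overlap, with a difference of -0.90 ± 0.28. The WK2 arrays of that probe overlapped with D1, and its WK2 difference from control was -0.48 ± 0.28, so the 2 probes disagree on the level after 2 weeks.

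Loxl1, a lysyl oxidase relative needed in mice for elastic fibre upkeep, differed from Lox. Its intensities were 8366, 8584 and 8766 in control, 7704, 5992 and 7827 in D1 and 5195, 4399 and 2702 in WK2. The 3 groups did not overlap on this probe, with WK2 the lowest. It was 2.15-fold lower in WK2 than in control (log2 -1.11 ± 0.23 SE, n = 3, limma adjusted p = 0.0493), and the D1 difference was -0.27 ± 0.23. The dimmer probe did not show this fall: it read 3437, 2497 and 3491 in control, 3853, 3550 and 3546 in D1 and 3629, 2989 and 3372 in WK2. Its D1 difference was 0.23 ± 0.17, with D1 above control and no overlap, and its WK2 difference was 0.094 ± 0.17. Averaging the 2 probes gave -0.019 in D1, and -0.51 in WK2 with an adjusted p of 0.0920 (limma). The call held without WK2 replicate 1 and ended without any other single array (limma, adjusted p 0.0680 to 0.148).

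**Figure D2:**
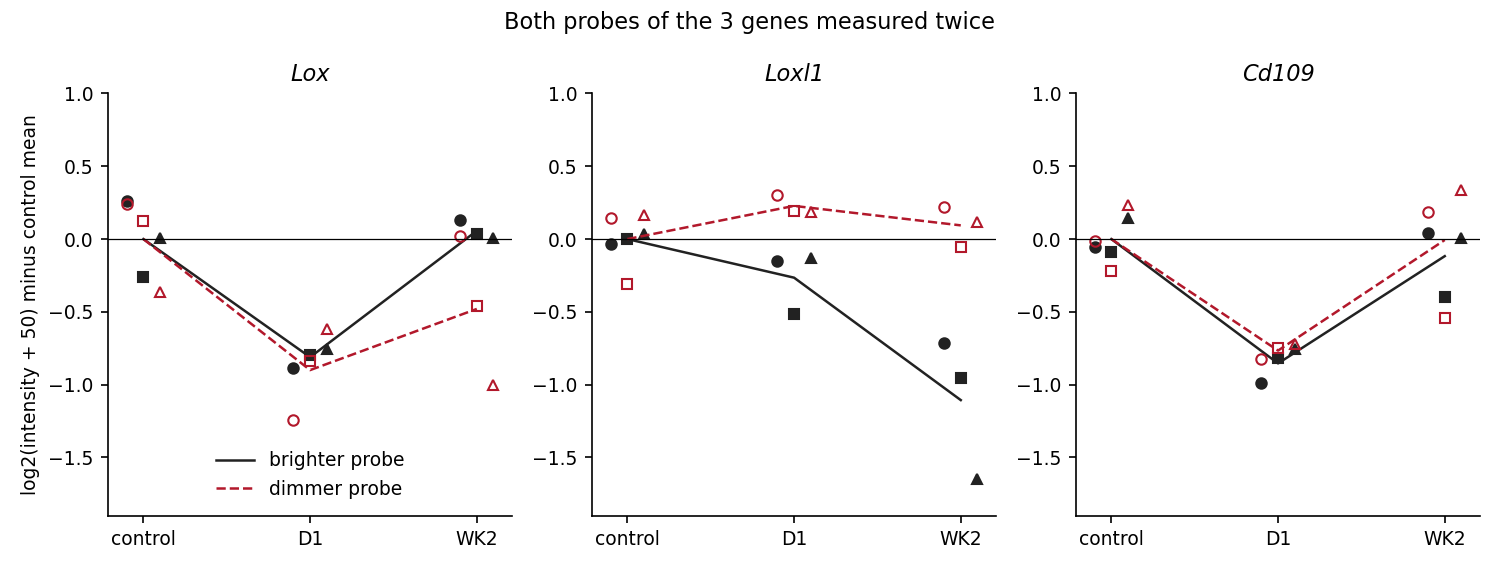
Mean log2(intensity + 50) relative to the control mean of the same probe (vertical axis) for both probes of Lox, Loxl1 and Cd109 in the 3 groups. Lines join group means, filled black symbols and solid lines are the brighter probe, open red symbols and dashed lines the dimmer one, and circles, squares and triangles are replicates 1, 2 and 3. The probes run together for Cd109, part in WK2 for Lox (0.057 and -0.48) and part most for Loxl1 (-1.11 and 0.094).

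Cthrc1 encodes a secreted collagen triple helix repeat protein known to limit collagen deposition in injured arteries and to promote bone formation. It stood at 2719, 2967 and 2975 in control, 1303, 1676 and 1303 in D1 and 4610, 4607 and 7446 in WK2. No array of one group overlapped with another, and the order was D1, control, WK2. The D1 difference was -1.0 ± 0.20 (SE, n = 3). In WK2 it lay above control by 0.90 ± 0.20 and did not pass the test (limma, adjusted p = 0.0551). Without WK2 replicate 3, the highest array, the WK2 difference was 0.67, and without WK2 replicate 1 it was 1.01 and passed (limma, adjusted p = 0.0473).

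Prss35, a secreted serine protease family member whose active site has lost the catalytic serine, read 577, 602 and 711 in control, 223, 269 and 316 in D1 and 678, 549 and 741 in WK2. D1 lay below both other groups, which overlapped. Its D1 difference, -1.10 ± 0.17 (SE, n = 3), was the largest of the 10 with this pseudocount, and the WK2 difference was 0.049 ± 0.17 (limma, adjusted p = 0.857). Prss35 is a dim feature. With a pseudocount of 500 its D1 difference was -0.55, smaller in size than those of Cthrc1 (-0.82), Col1a2 (-0.74), Cd109 (-0.72), Lox (-0.70) and Col5a2 (-0.69), and it was the only one of the 10 lost when the dimmest 50% of features were left out, so that 9 of 10 remained.

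Cd109 encodes a surface protein anchored by glycosylphosphatidylinositol, known to bind TGF-β and dampen its signal. Its intensities were 3255, 3191 and 3752 in control, 1685, 1901 and 1987 in D1 and 3493, 2559 and 3402 in WK2. Again D1 lay below every other array. The D1 difference was -0.85 ± 0.16 (SE, n = 3) and the WK2 difference -0.12 ± 0.16 (limma, adjusted p = 0.631). The dimmer probe gave -0.77 ± 0.23 and -0.0063 ± 0.23 for the same differences, with D1 again apart from control. In RefSeq's gene order, Cd109 lies beside Col12a1 on chromosome 9.

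Counted together, 9 of the 10 genes lay below control in D1, as 43.4% of all features did, and 8 of them with no overlap between the groups, against 5.19% of all features. Loxl1 is among the 8 on its brighter probe only. The median difference was -0.76, against 0.031 over all features. There were 6 genes, Col1a2, Col5a2, Lox, Cthrc1, Prss35 and Cd109, that lay in D1 below both other groups with no overlap, against 1.16% of all features. Nothing is read from these shares, since the genes were chosen on the D1 values. The limma test called 0% of the 23631 features in D1 against control, with 473 (2.00%) at an unadjusted p under 0.05. Without control replicate 2 and WK2 replicate 3, the arrays farthest from their own groups, 9 of 10 genes were still below control in D1 and 7 lay below both other groups with no overlap. With fewer arrays the share of all features below both rose as well, to 4.04%.

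After 2 weeks, 4 of the 10 genes lay below control, against 37.3% of all features, and 6 above, with a median difference of 0.034, where the median over all features was 0.14. Relative to that general shift the genes' median was -0.11. Loxl1 alone passed, 1 of 10, while 1.18% of all features were called lower and 1.61% in either direction. The values of 8 genes overlapped between WK2 and control, as for 62.4% of all features. The count below control rose to 7 of 10 under median centring and without control replicate 2 and WK2 replicate 3. Calls in this comparison were unstable, since with 1 array left out 1 to 953 features were called, beside 380 in all. A p that misses the threshold does not show that the WK2 and control levels were equal: with 3 arrays against 3, the SE of these differences was 0.16 to 0.28.

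**Figure D3:**
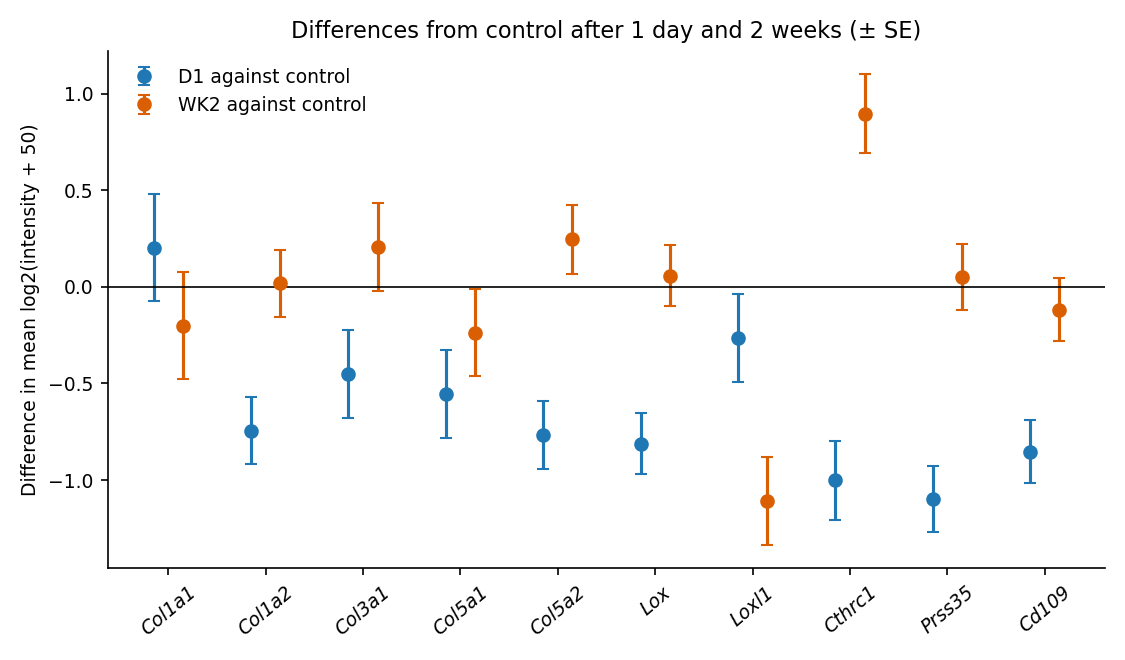
Difference from control in mean log2(intensity + 50) for each gene (vertical axis) in D1 (blue) and WK2 (orange), with SE from the limma fit (3 arrays a group). The blue points lie between -1.10 and 0.20, and the orange points scatter about 0 except for Loxl1 at -1.11 and Cthrc1 at 0.90.

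WK2 against D1 shares the D1 arrays with the choice of genes, so these values too are a description. WK2 was above D1 for 8 of 10 genes, against 61.6% of all features, and for 7 with no overlap, against 18.7%. Cthrc1 differed most, by 1.90 ± 0.20 (SE, n = 3), beside Prss35 at 1.15 ± 0.17, Col5a2 at 1.01 ± 0.18 and Lox at 0.87 ± 0.16. The order below Cthrc1 depended on the pseudocount, since with 500 Prss35 lay at 0.59, below Col5a2 (0.92), Col1a2 (0.76), Lox (0.75) and Cd109 (0.62). Loxl1 ran the other way at -0.84 ± 0.23, and Col1a1 at -0.40 ± 0.28. Over all features limma called 22 (0.0931%) in this comparison, and no call is given for the 10 genes.

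Other genes of collagen biology were followed from lists that do not hold the 10. None passed in D1 (limma, adjusted p = 1.00 for each gene named). Beside the counts that follow, 43.4% of all features lay below control in D1 and 37.3% in WK2. The other fibrillar collagens were all below control in D1, 5 of 5, with a median of -0.57 and 0 past the test. Col11a1, of cartilage and of type V hybrid fibrils, differed by -0.64 ± 0.22 (SE, n = 3) in D1 and 0.28 ± 0.22 in WK2. Col24a1, a minor collagen of bone, had -0.57 ± 0.26 and 0.18 ± 0.26, and without control replicate 3 its D1 difference was -0.35. Col2a1, the main collagen of cartilage, had -0.69 ± 0.66 and -1.73 ± 0.66 (limma, adjusted p = 0.123). It rested on control replicate 2, which read 12051 where the other control arrays read 1795 and 2136, and without that array the D1 difference was 0.17 and the WK2 difference -0.86. Col27a1 lay at -0.35 ± 0.24 and -0.99 ± 0.24 (limma, adjusted p = 0.0588).

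Proteins that coat, organise or anchor fibrils were below control in D1 in 13 of 14 genes measured, with a median of -0.34. In WK2 they split, with 8 above and 6 below control, a median of 0.095 and 0 past the test. Lum, lumican, a proteoglycan on the fibril surface, lay at -0.36 ± 0.30 (SE, n = 3) in D1 and 0.97 ± 0.30 in WK2 (limma, adjusted p = 0.0819). Postn, periostin, which helps activate Lox, lay at -0.41 ± 0.30 and 0.75 ± 0.30 (adjusted p = 0.132, limma), and Thbs2, thrombospondin 2, at -0.41 ± 0.21 and 0.94 ± 0.21 (limma, adjusted p = 0.0543). Without WK2 replicate 3 the WK2 difference was 0.60 for Lum and 0.39 for Postn. Fn1, fibronectin, lay at -0.54 ± 0.26 and -1.10 ± 0.26 (limma, adjusted p = 0.0578).

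Of the 15 measured genes for collagen folding, hydroxylation and trimming, 9 lay below control in D1, with a median of -0.11. In WK2, 6 lay below control and 9 above, with a median of 0.16. That is near the level of all features, of which 37.3% lay below control in WK2, with a median of 0.14. None of the 15 passed in D1 or WK2. Serpinh1, the collagen chaperone HSP47, read 48583, 47066 and 56917 in control, 39071, 38972 and 36560 in D1 and 73668, 47129 and 82661 in WK2. Its D1 arrays lay below all others, with differences of -0.41 ± 0.21 (SE, n = 3) in D1 and 0.38 ± 0.21 in WK2. P4ha2, a prolyl hydroxylase subunit, had -0.33 ± 0.14 and 0.20 ± 0.14. Plod2, which hydroxylates lysines used for cross-links, had -0.54 ± 0.23 and -0.43 ± 0.23. Crtap, of the prolyl 3-hydroxylation complex, had -0.44 ± 0.18 and -0.34 ± 0.18.

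The other cross-linking genes, Loxl2, Loxl3, Loxl4 and the transglutaminase gene Tgm2, were above control in 3 of 4 cases in both D1 and WK2, with medians of 0.068 and 0.19 and 0 past the test. Loxl4 lay at 0.41 ± 0.44 (SE, n = 3) in D1 and 0.85 ± 0.44 in WK2, and Loxl2 at -0.54 ± 0.24 in WK2. The D1 difference of Loxl4 was 0.030 with its probes averaged. It was 0.96 without D1 replicate 1 and 0.13 without D1 replicate 3.

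The list for collagen breakdown also holds genes of its inhibitors, Timp1, Timp2 and Timp3, so its counts do not give a direction of breakdown. Its genes lay below control in 9 of 10 cases in D1, with a median of -0.17. In WK2 they did so in 6 of 10, with a median of -0.11. Timp3, a matrix-bound inhibitor of metalloproteinases, fell in WK2 (log2 -1.26 ± 0.19 SE, n = 3, limma adjusted p = 0.0349), from 36729, 55930 and 48687 in control to 18150, 17244 and 23094. That call was lost in 11 alternatives, among them each array left out other than WK2 replicate 1. The gelatinase gene Mmp9 had a WK2 difference of -0.87 ± 0.23 (limma, adjusted p = 0.0645), the collagen uptake receptor gene Mrc2 -0.61 ± 0.20 and the collagenase gene Mmp13 0.58 ± 0.26, or 0.30 without WK2 replicate 3.

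TGF-β signalling is the best known inducer of fibrillar collagens. Of its 17 measured genes, 9 lay below control in D1 (median -0.014) and 13 in WK2 (median -0.23), and none passed. Ccn2, a target of the pathway, read 45783, 42878 and 50157 in control, 28556, 34665 and 35347 in D1 and 28264, 13270 and 29266 in WK2. Control lay above the other groups, with differences of -0.50 ± 0.27 (SE, n = 3) and -1.05 ± 0.27 (limma, adjusted p = 0.0642), the latter -0.68 without WK2 replicate 2. The ligand gene Tgfb1 had a WK2 difference of -0.63 ± 0.15 (limma, adjusted p = 0.0571), the inhibitory Smad6 -0.70 ± 0.22 and the corepressor gene Ski -0.65 ± 0.22. Under other settings Tgfb1 passed in 6 alternatives, Ccn2 in 4 and Smad6 in 1. Tgfb2, another ligand gene, named here after its values were seen, ran the other way at 1.23 ± 0.40 (limma, adjusted p = 0.0915), the largest WK2 difference of the list, with WK2 above control and no overlap. With all its probes averaged it was 0.48.

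**Figure D4:**
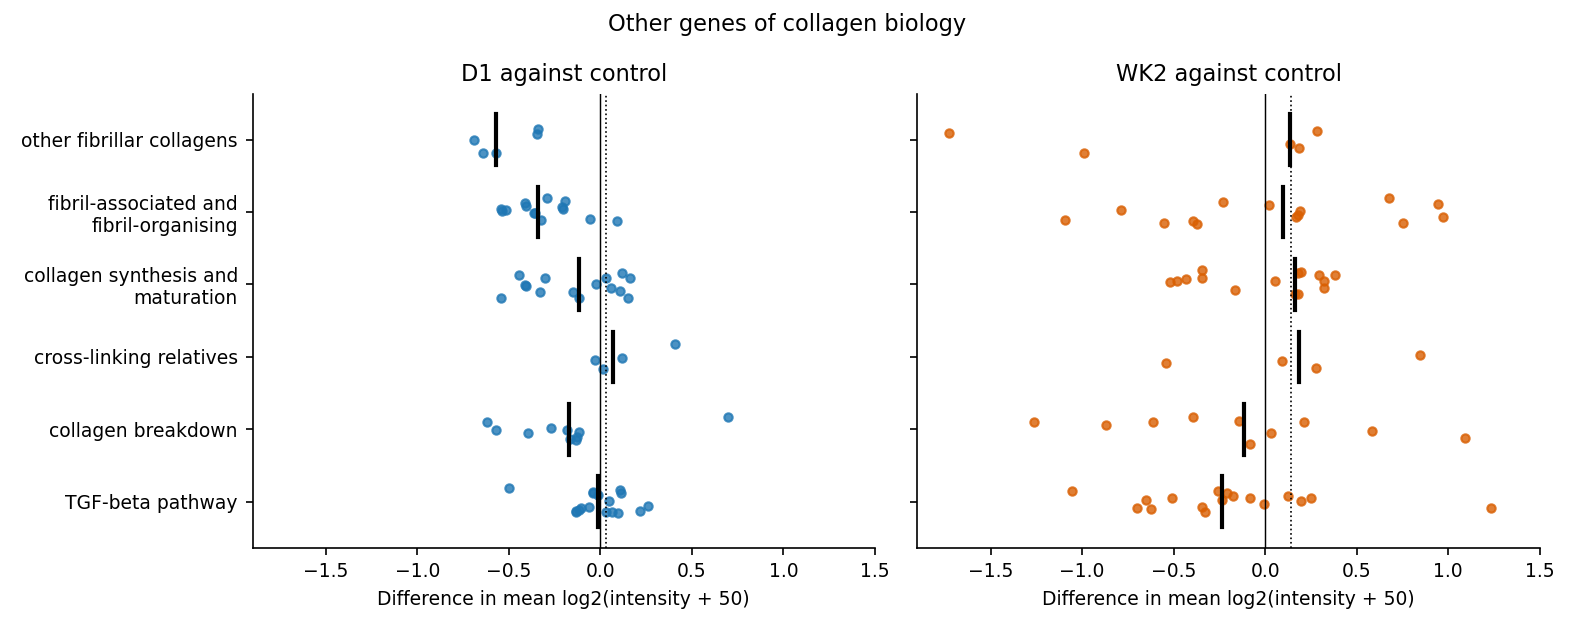
Difference from control in mean log2(intensity + 50) (horizontal axis) of each gene of 6 lists in D1 (left) and WK2 (right). Points are genes, heavy bars are list medians and the dotted line is the median over all features, 0.031 in D1 and 0.14 in WK2. The other fibrillar collagens (median -0.57) and fibril-associated genes (-0.34) lie left of 0 in D1, while the TGF-β list is centred near 0 there.

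Cell type markers were summed on each array beside these results. The 6 measured osteoblast genes, without Runx2 and Spp1, summed to 110091 to 140184 in control, 71881 to 72553 in D1 and 95032 to 210875 in WK2. All 6 lay below control in D1 and 5 did in WK2. Between the 2 treated groups, 3 were lower in WK2 than in D1 and 3 higher. Their sum was lowest in D1. Most of that sum was Ibsp, bone sialoprotein, at 94773, 77240 and 99628 in control, 43623, 46433 and 47654 in D1 and 117174, 75917 and 185713 in WK2. It differed by -0.97 ± 0.28 (SE, n = 3) in D1 and 0.39 ± 0.28 in WK2. Without Ibsp the osteoblast sum was 28684 to 40556 in control, 24227 to 28930 in D1 and 19115 to 29202 in WK2. Dmp1, of osteocytes, fell in WK2 (log2 -1.53 ± 0.23, limma adjusted p = 0.0352), a call lost in 10 alternatives. The part of bone cells in the results above was not tested.

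The 10 fibroblast genes summed to 115992 to 150071 in control, 121451 to 127993 in D1 and 103921 to 155880 in WK2, with 5 above and 5 below control in D1. The largest part of that sum was Vim, vimentin, at 69885, 54915 and 84298 in control and 68634, 74431 and 72464 in D1. Its D1 difference was 0.065 ± 0.19 (SE, n = 3). Fap, fibroblast activation protein, the next largest part, differed by -0.40 ± 0.26 in D1 and 0.37 ± 0.26 in WK2. Without WK2 replicate 3 its WK2 difference was 0.016. In D1, Fap lay below control without overlap and Mfap5 above it. The list's median in D1 was 0.011. In WK2 the median was -0.19, with 4 genes above control and 6 below. There Thy1 lay below control without overlap (-0.62 ± 0.19), and Cd34 (0.49 ± 0.17) and Mfap5 (0.62 ± 0.18) lay above it without overlap. The 6 osteoclast genes summed to 19677 to 21446 in control, 15869 to 18595 in D1 and 18006 to 25768 in WK2, and all 6 lay below control in D1. Calcr, the calcitonin receptor, lay at -1.08 ± 0.22 in D1 and -0.77 ± 0.22 in WK2 (limma, adjusted p = 0.0758). It was the only 1 of the 6 below control in WK2, where 5 lay above and the list's median was 0.061. The 7 chondrocyte genes summed to 9148 to 22742 in control, where replicate 2 was highest, 8858 to 10855 in D1 and 7655 to 9059 in WK2. Col9a1, of cartilage fibrils, fell in WK2 (log2 -0.92 ± 0.16, limma adjusted p = 0.0408), a call lost in 11 alternatives.

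**Figure D5:**
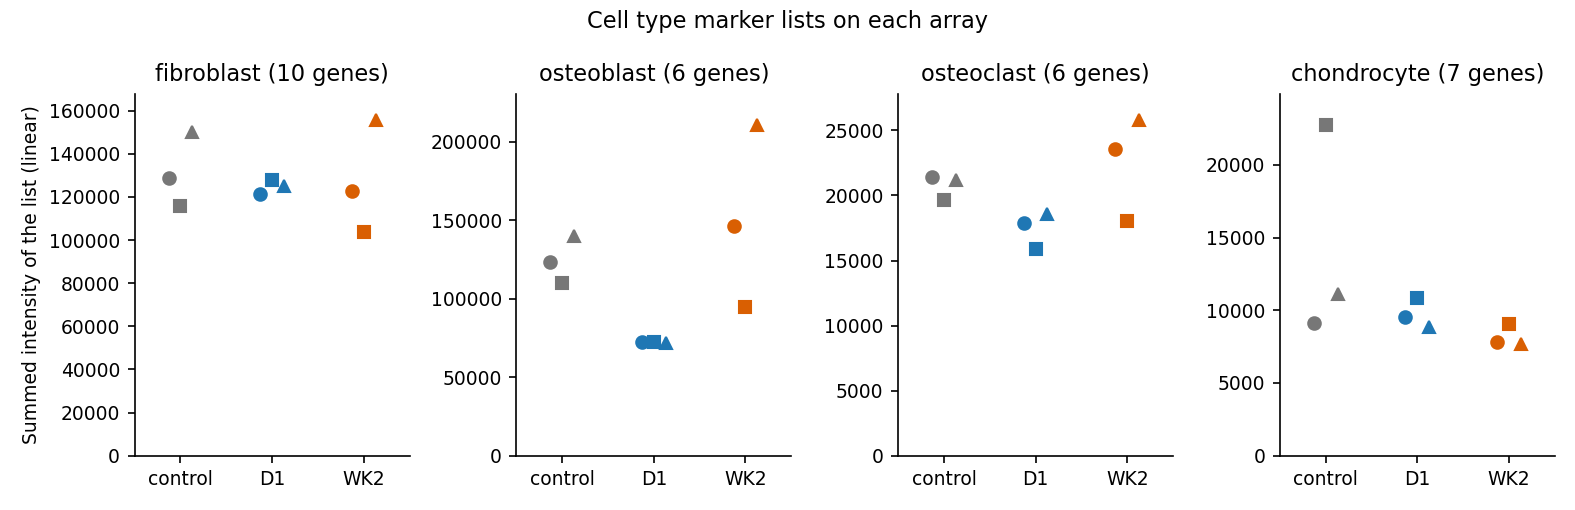
Summed intensity (vertical axis, linear, a separate scale for each list) of the measured fibroblast, osteoblast, osteoclast and chondrocyte genes on each control, D1 and WK2 array. Circles, squares and triangles are replicates 1, 2 and 3. The D1 osteoblast sums (71881 to 72553), with Ibsp their largest part, lie below all other arrays. The fibroblast sums of the 3 groups, with Vim their largest part, overlap.

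Markers of the epithelium were bright in every group, with olfactory neuron genes summing to 766772 to 1074540 over the 9 arrays. Between D1 and control, the sums of smooth muscle, endothelial, macrophage, neutrophil, sustentacular, basal cell and erythroid markers overlapped. The erythroid list held 1 measured gene, Alas2, and the sustentacular list 2, with Cyp2g1 most of its sum. In WK2 the basal cell sum, 36401 to 40556, lay above that of control, 24672 to 25522. So did the neuron and sustentacular sums, and the endothelial sum lay below that of control. Most of the basal cell sum was Krt14, at 0.66 ± 0.15 in WK2. The other basal cell genes were Krt5 at 0.60 ± 0.20 and Trp63 at -0.088 ± 0.14. The 5 neuron genes split in WK2, with Omp, by which the samples were chosen, at 0.60 ± 0.19 (SE, n = 3) and Gng13 at 0.52 ± 0.15, both above every control array, and Adcy3 at -0.58 ± 0.23 and Gnal at -0.44 ± 0.18, both below every one. No measured marker of any list was at or below 0 on any array. Their part in the results was not tested. Median intensity was 1202 to 1447 per array.

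The genes most like the 10 were looked for over the 9 arrays among 10991 named features. With the mean of the 5 fibrillar collagens, Pearson's r was 0.94 for Col24a1, 0.94 for Col22a1, a collagen of tissue junctions, 0.91 for Col12a1, which coats type I fibrils, 0.87 for Tnc, tenascin C, and 0.86 for Ibsp. With the mean of Lox, Cthrc1, Prss35 and Cd109 it was 0.94 for Ibsp, 0.93 for Antxr2, a receptor that binds matrix collagens, 0.93 for Cgref1, a secreted calcium-binding protein, 0.93 for Plat, tissue plasminogen activator, and 0.92 for Aspn, asporin, a small proteoglycan that binds collagen. The arrays share their groups, so these values are a description of likeness only. Aspn read 5366, 4178 and 5526 in control, 2767, 3368 and 3774 in D1 and 7376, 5158 and 8835 in WK2, with D1 lowest and no overlap with either group.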

How the data were processed

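Olfactory mucosa RNA was hybridised to 9 single-colour arrays, 3 in each of 3 groups. It had been extracted with Trizol, amplified and labelled with Cy5, per the labels' protocols. The authors deposited 1 table of intensity values on a linear scale for 26423 probes, with a few values below 0. For the scanner, the background correction and the scaling, the sources used here state nothing. Array medians differed by at most 0.268 on the log2 scale, within the 0.5 allowed for using the values as deposited.

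Probes were named through the platform's annotation, and symbols were brought up to date with RefSeq's GRCm38.p6 gene table, which held the gene IDs of 21825 probes. There were 21876 probes with 1 gene symbol and 4547 with none. The brightest probe stood for each gene, which left 23631 features. Values were taken as log2(intensity + 50) and fitted over all 9 arrays with limma 3.58.1 in R 4.3.3. P-values were adjusted by the Benjamini-Hochberg method over all features, with 0.05 as the threshold. The script was tested on simulated data. The 10 genes, and the lists of other genes, were chosen with earlier results of these data known. From each list, up to 4 genes of the smallest limma p, and any that passed, could be named. Vim, Tgfb2, Timp1 and Timp2 were named outside this rule. Genes of like pattern were the 5 with the highest correlation among features at or above the median intensity. Other settings were tried, with their effect given at the end.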

Additional observations from a re-analysis of the deposited data

Results flagged for a closer look

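For Lox and Cthrc1, every D1 array lay below the control mean of log2(intensity + 50) and every WK2 array above it. For Lox this rests on the log2 scale, since on the linear scale WK2 replicate 3, at 3780, lay below the control mean of 3807. Lox differed from control by -0.81 in D1 and 0.057 in WK2, and Cthrc1 by -1.0 in D1 and 0.90 in WK2. The change of sign was not tested, since both genes were chosen with their D1 values known. For Lox it was seen on the brighter probe only, and the dimmer probe gave -0.48 in WK2.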

How the results depend on the processing

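There were 21 alternatives, of which 1, leaving out both control replicate 2 and WK2 replicate 3, was chosen after seeing the data. Over them the median difference of the 10 genes was -0.82 to -0.62 in D1 and -0.13 to 0.10 in WK2. Every one of the 10 kept its sign in D1, Loxl1 at only -0.019 with its probes averaged. Col1a1 ranged in D1 from 0.0043, with array weights, to 0.52, without control replicate 3. Counts of features called by limma depended strongly on the setting. In WK2 against control, 380 in all, the count was 777 and 131 with pseudocounts of 500 and 16, 1419 under quantile normalization, 1545 under median centring, 682 under cyclic loess, 1135 without the dimmest 50% of features, 2738 with array weights, and 0 in a fit of the 2 groups alone or without the 2 arrays named above. In WK2 against D1, 22 in all, the counts were 13 with a pseudocount of 500, 75 (quantile), 50 (median centring), 53 (cyclic loess), 134 (array weights), 2 (the 2 groups alone) and 2 (without both arrays). With 1 array left out the ranges were 0 to 1 in D1 against control, 1 to 953 in WK2 against control and 1 to 27 in WK2 against D1. The 953 came without WK2 replicate 1, and the other single arrays gave at most 37. Some named genes that missed the threshold in WK2 against control passed in alternatives. Tgfb1 passed in 6, Cthrc1, Fn1 and Thbs2 in 5 each, Ccn2 and Calcr in 4 each, and Col27a1 and Mmp9 in 3 each. Mrc2 passed in 2, and Gng13, Loxl2 and Smad6 in 1 each. The call of Loxl1 was lost in 13.

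The replicate numbers did not pair the arrays, since deviations of same-numbered arrays correlated at -0.28 to 0.14 and an array matched its own number best in 5 of 18 cases. With the number as a replicate block, 1 feature was called in WK2 against control and 8 in WK2 against D1.

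Differences in WK2 against control that changed sign had not passed. With all arrays the largest of them were Ibsp at 0.39 and Fap at 0.37. The cause was not tested. Col1a2 lay at -0.26 (quantile), -0.082 (median centring) and -0.15 (cyclic loess), Prss35 at -0.15, -0.052 and -0.16 in the same order and at -0.011 with array weights, and Lox at -0.044 (median centring), -0.21 (mean of both probes) and -0.0052 (array weights), where Col24a1 lay at -0.029. With arrays left out, the WK2 differences ran from -0.47 to 0.12 for Col1a1, -0.12 to 0.13 for Col1a2, -0.082 to 0.42 for Col3a1, -0.46 to -0.0014 for Col5a1, -0.075 to 0.19 for Lox, -0.066 to 0.16 for Prss35, -0.22 to 0.024 for Cd109, -0.18 to 0.42 for Col24a1, -0.043 to 0.71 for Ibsp and -0.031 to 0.59 for Fap, and the D1 difference of Col2a1 from -1.18 to 0.17. The D1 difference of Loxl1 was -0.14 without D1 replicate 2. With a pseudocount of 500, Col27a1 lay at -0.44 in WK2 and Calcr at -0.58 in D1 and -0.44 in WK2.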
